A study of Mus musculus with 12 samples.

Results

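Among glioblastoma cell cultures raised from 3 mouse lines, 10 genes were followed that had been picked for large differences between the tumour groups: Penk, Cnmd, Adcy2, Tmem100, Nr4a2, Sv2c, Epb41l3, Cryab, Rerg and Fam135b. They are 10 of 19934 distinct genes on the array, measured by 14 of the 21780 probe sets that carry exactly 1 gene symbol, and all 14 were measured in every culture because no filter on low values was applied. Of the 10 genes, 9 had 1 probe set, and Fam135b had 5, of which the one with the highest mean stands for the gene unless another is named. The genes were chosen by their log2 differences between tumour group means, so those differences are given as a description with no test. Tests are given for tumour cultures against neural stem cell (NSC) cultures and for genes outside the 10.

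The study asked how the cell in which a glioblastoma starts shapes the tumour cells. Adult mice of the G/tv-a, N/tv-a and C/tv-a lines, all Arf-/-, received DF-1 chicken cells that release the virus RCAS-PDGFB-HA, which enters only cells bearing the tv-a receptor. As background, the promoter of Gfap (astrocytes and stem cells), of Nes (progenitors) or of Cnp (oligodendrocyte lineage) drives that receptor, and Arf is a tumour suppressor whose loss all cultures share. The tumour cultures were mGC1_GFAP from G/tv-a, mGC2_NES from N/tv-a and mGC3_CNP from C/tv-a, with 3 cultures each. The NSC cultures came from the subventricular zone of adult mice, 1 per line, also Arf-/- and labelled as normal. All 12 were untreated, grown attached in stem cell medium and hybridised to 1 Affymetrix array each, and neither the age nor the sex of the animals is given in the labels. Origin and mouse line coincide in the tumour groups.

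Tumour cultures had list means of 12.66 to 12.82 over 8 oligodendrocyte precursor markers, against 9.86 to 10.18 in NSC cultures, on the log2 scale of the deposited values. For 6 measured neural stem cell markers the list means were 9.26 to 9.80 in tumour cultures, against 11.33 to 11.51 in NSC cultures. Of these 6, Nes (10.64, 9.63 and 10.24 in mGC1_GFAP, mGC2_NES and mGC3_CNP) and Nr2e1 (8.99, 8.30 and 8.79) differed among tumour groups by limma's F test, at adjusted p = 0.0440 and 0.0327, both lowest in mGC2_NES, and their part in the values of the 10 genes was not tested. Odf1, Prm2, Tnp1 and Tnp2, genes of sperm formation taken as not made in these cells, read 5.60 to 7.42, so a difference whose lower mean is at or below 7.42 is a lower bound. Y-linked transcripts were found in 2 mGC1_GFAP cultures, in 2 mGC2_NES cultures, in 0 of the 3 mGC3_CNP cultures and in 2 NSC cultures, and the G/tv-a NSC culture carried Xist as well, at 11.86 beside a Y-linked mean of 8.39. Xist read 9.27 in mGC2_NES replicate 2, which lacked Y-linked transcripts, against 11.91 or more in the other cultures that lacked them. Whether a culture was mixed or mislabelled cannot be told from the files, and values that rest on the G/tv-a NSC culture carry that doubt. Of markers of endothelium, of pericytes or fibroblasts and of microglia, 6 of 8, 6 of 9 and 6 of 8 read at or below 7.42 in every group. In such bulk cultures, more cells of a type and more RNA per cell cannot be told apart.

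The 10 genes belong to no single pathway. Several touch cyclic AMP signalling, in which receptors coupled to G proteins switch on adenylyl cyclases, cyclic AMP releases the catalytic subunits of protein kinase A, and the kinase activates CREB, a factor that binds the cyclic AMP response element TGACGTCA in promoters. Adcy2 is one of the cyclases, and Nr4a2 and Penk are known to be induced through this route in neural cells. The others encode a chaperone, a RAS-like GTPase, membrane and vesicle proteins and a secreted inhibitor of blood vessel growth.

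RefSeq promoter windows of GRCm38.p6, from 250 bases before to 50 after the annotated start, were at hand for 5 of the 10 genes. Those of Nr4a2, Adcy2 and Cnmd are shown, on the strand of the gene, because they set a cyclic AMP target beside a cyclase and beside a gene without that link, and because Adcy2 and Cnmd shared the mGC2_NES peak described below. The Nr4a2 window lies at chr2:57123954-57124253 (minus strand), that of Adcy2 at chr13:68999492-68999791 (minus strand) and that of Cnmd at chr14:79662134-79662433 (minus strand). Capitals mark TGACG, the core of the cyclic AMP response element, and the TATA box motif TATAAA, each on either strand, so that TGACG on the other strand reads CGTCA and TATAAA reads TTTATA.
Nr4a2: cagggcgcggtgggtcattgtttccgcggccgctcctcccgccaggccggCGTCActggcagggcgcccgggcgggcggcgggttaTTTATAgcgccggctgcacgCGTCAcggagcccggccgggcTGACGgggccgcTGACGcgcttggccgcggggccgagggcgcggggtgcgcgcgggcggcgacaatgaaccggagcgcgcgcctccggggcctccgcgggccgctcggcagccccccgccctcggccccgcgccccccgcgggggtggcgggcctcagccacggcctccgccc
Adcy2: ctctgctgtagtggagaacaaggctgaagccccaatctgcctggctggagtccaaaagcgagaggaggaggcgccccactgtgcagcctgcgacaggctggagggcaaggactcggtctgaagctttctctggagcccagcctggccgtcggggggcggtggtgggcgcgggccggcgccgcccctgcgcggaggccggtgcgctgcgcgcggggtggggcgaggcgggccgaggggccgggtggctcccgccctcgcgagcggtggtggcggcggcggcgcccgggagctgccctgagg
Cnmd: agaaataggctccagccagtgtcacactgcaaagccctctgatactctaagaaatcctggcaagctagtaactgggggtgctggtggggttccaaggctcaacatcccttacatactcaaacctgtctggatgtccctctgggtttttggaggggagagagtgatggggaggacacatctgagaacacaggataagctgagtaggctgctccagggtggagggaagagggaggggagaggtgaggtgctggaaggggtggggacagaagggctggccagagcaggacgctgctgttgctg
The Nr4a2 window held TGACG 4 times, first bases at -200, -144, -123 and -111 from the start, and at least 4 copies were found in 0.231% of the 32851 promoter windows in the table. At least 1 TGACG was in 20.8% of all windows, the full element TGACGTCA, which contains that core, in 1.79%, and TATAAA in 13.6%. Neither the Adcy2 nor the Cnmd window held any of these motifs or AAAGGTCA, the element bound by NR4A receptors, which 1.51% of windows carried. Base composition also separated them, with GC at 81.7% for Nr4a2, 75.0% for Adcy2 and 56.0% for Cnmd, against a median of 52.7%. CpG numbered 52, 32 and 1 in these windows, in the same order, against a median of 7. A match is a description of the letters only.

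By group means, 4 of the genes were highest in mGC2_NES (Penk, Cnmd, Adcy2 and Tmem100), 3 in mGC1_GFAP (Nr4a2, Epb41l3 and Fam135b) and 3 in mGC3_CNP (Sv2c, Cryab and Rerg). All 10 genes passed the moderated F test among tumour groups, as the rule by which they were picked implies, and 4.05% of all probe sets did (limma adjusted p under 0.05, here named called). Pair by pair, 7 of the 10 were called between mGC1_GFAP and mGC2_NES (6.13% of all), 3 between mGC1_GFAP and mGC3_CNP (0.487%) and 6 between mGC2_NES and mGC3_CNP (0.459%). The arrays of the paired groups did not overlap for 7 (26.5% of all), 5 (19.4%) and 9 (18.2%) of the 10. Nothing is read from these counts, since the rule used the same contrasts. By the distance between the highest and the lowest group mean, Adcy2 ranked 4th, Penk 6th and Tmem100 8th of all probe sets. Fam135b, ranked 867th by its leading probe set, lay at the other end of the 10. Its other 4 probe sets, 10429203, 10429218, 10429220 and 10429222, ranked 74th, 51st, 146th and 111th.

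**Figure D1:**
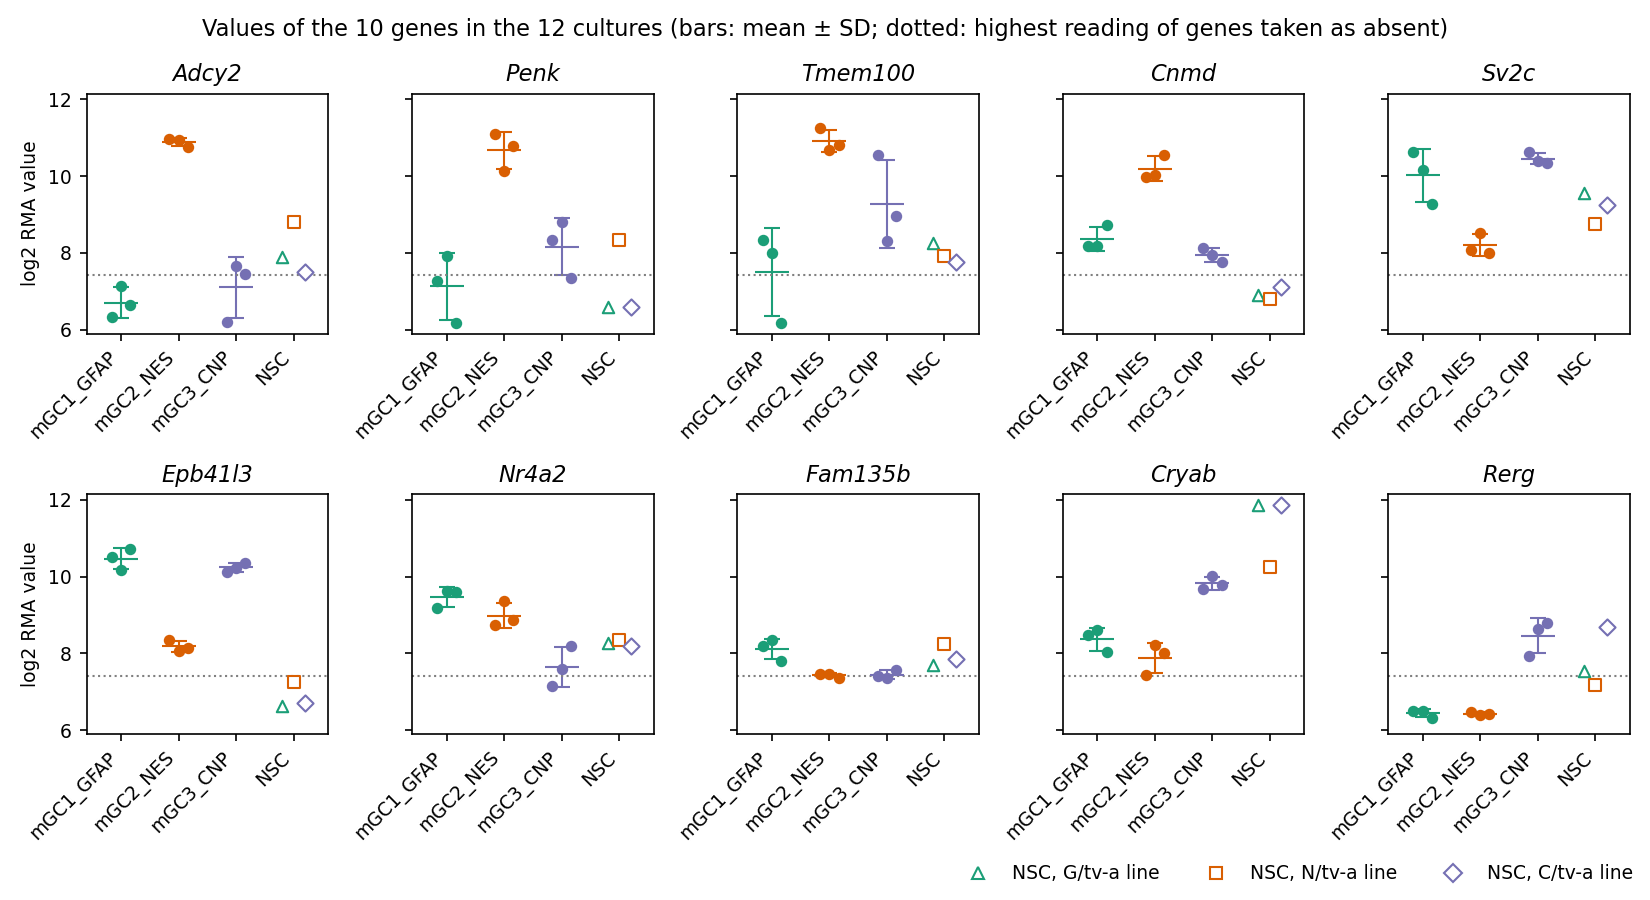
Deposited log2 values of the 10 genes by culture, 1 panel per gene, with 3 cultures per tumour group and the NSC cultures as open symbols by mouse line. Bars give mean ± SD of the tumour groups, and the dotted line at 7.42 is the highest reading of the genes taken as absent; Adcy2 lies at 10.77 to 10.97 in mGC2_NES and at or below 7.67 in all other tumour cultures.

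Among the secreted products, Penk encodes proenkephalin, the precursor of the enkephalin opioid peptides. Its log2 value was 11.10, 10.14 and 10.79 in mGC2_NES, 8.33, 8.81 and 7.35 in mGC3_CNP and 7.27, 7.93 and 6.18 in mGC1_GFAP, against 8.34 in N/tv-a, 6.59 in C/tv-a and 6.60 in G/tv-a NSC. All mGC2_NES cultures lay above every other culture, while those of mGC3_CNP, mGC1_GFAP and NSC overlapped. The mGC2_NES mean of 10.67 ± 0.49 (SD, n = 3) exceeded the mGC1_GFAP mean of 7.13 ± 0.88 (SD, n = 3) by 3.55 ± 0.48 (SE) on the log2 scale, at least 11.7-fold. It exceeded the mGC3_CNP mean by 2.51, or 5.69-fold. Among NSC cultures the N/tv-a one was also highest, by 1.73 over G/tv-a and 1.75 over C/tv-a, with 1 culture per line and hence no test.

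Most of the other opioid genes gave little signal. Of 10 measured opioid peptide, receptor and processing genes, 6 had all group means at or below 7.42. None of the 10 differed among tumour groups (limma, 0 called and 0 at an unadjusted p under 0.05, which 19.5% of all probe sets reached). Against NSC, 3 were higher and 0 lower: Oprl1, the nociceptin receptor, by 0.74 ± 0.19 (SE, limma adjusted p = 0.00989), the opioid growth factor receptor Ogfr by 0.61 ± 0.08 and the peptide-processing carboxypeptidase Cpe by 0.41 ± 0.11. For Oprl1 both the tumour mean of 7.10 and the NSC mean of 6.36 lay below 7.42, so presence was not shown. Ogfr and Cpe read high, with tumour means of 11.51 and 12.09.

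Cnmd encodes chondromodulin, a cartilage glycoprotein with a BRICHOS domain that inhibits blood vessel growth. Its values were 9.99, 10.02 and 10.56 in mGC2_NES, 8.17, 8.19 and 8.73 in mGC1_GFAP and 8.13, 7.95 and 7.75 in mGC3_CNP, against 6.80 in N/tv-a, 6.92 in G/tv-a and 7.10 in C/tv-a NSC. No pair of neighbouring groups overlapped, which held for no other of the 10 genes. The mGC2_NES mean of 10.19 ± 0.32 exceeded the mGC3_CNP mean of 7.94 ± 0.19 (SD, n = 3 each) by 2.25 ± 0.19 (SE), or 4.75-fold. The NSC cultures of those lines differed by 0.30 the other way, with every NSC value below 7.42.

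Cartilage matrix genes, with which chondromodulin is found in cartilage, were mostly higher in tumour cultures: 10 of 14 measured rose against NSC, 2 fell and 2 were not called (limma, 36.7% of all probe sets called). Hapln1, a link protein that anchors hyaluronan, rose by at least 5.54 ± 0.49 (SE), the proteoglycan Acan by at least 4.78 ± 0.13, Col9a1 by 2.48 ± 0.20 and Col11a1 by 2.37 ± 0.15, while Sox9, the chondrocyte and glial factor, fell by 0.83 and Matn3 fell by 0.29, with both Matn3 means below 7.42. Acan, Hapln1, Sox5 and Sox6 are also genes of oligodendrocyte precursors, whose markers were high in the same cultures. Between tumour groups, Hapln1 differed by -3.07 ± 0.66 (SE, limma adjusted p = 0.0294) in mGC1_GFAP against mGC2_NES, with means of 8.52 and 11.59, and Col9a3 by -1.46 ± 0.30. By the F test 0 of the 14 were called, and 4 had an unadjusted p under 0.05. Of 9 other BRICHOS genes, 5 had all group means at or below 7.42, and Bricd5 alone was called by the F test (limma adjusted p = 0.00736), at 10.53, 11.40 and 11.61 in mGC1_GFAP, mGC2_NES and mGC3_CNP, against 8.23 in NSC.

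Adcy2 encodes adenylyl cyclase 2, a membrane enzyme that makes cyclic AMP and responds to G protein beta-gamma subunits. Its values were 10.97, 10.95 and 10.77 in mGC2_NES, 6.19, 7.67 and 7.44 in mGC3_CNP and 6.32, 7.14 and 6.65 in mGC1_GFAP, against 8.81 in N/tv-a, 7.49 in C/tv-a and 7.90 in G/tv-a NSC. The mGC2_NES cultures stood above all others, and the remaining tumour cultures lay at or near the reading of absent genes. The mGC2_NES mean of 10.90 ± 0.11 (SD, n = 3) exceeded that of mGC1_GFAP, 6.70 ± 0.41 (SD, n = 3), by 4.19 ± 0.35 (SE), at least 18.3-fold, and that of mGC3_CNP, 7.10 ± 0.80 (SD, n = 3), by 3.80, at least 13.9-fold. NSC of the N/tv-a line exceeded those of G/tv-a by 0.91 and those of C/tv-a by 1.31, the same direction at a smaller size.

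None of the 9 other adenylyl cyclases was called among tumour groups (limma F test, 0 called and 0 at an unadjusted p under 0.05). Against NSC, 4 of the 9 rose, 0 fell and 5 were not called, with a list median of 0.60 against 0.01 for all probe sets. Adcy5 rose by at least 2.56 ± 0.09 (SE, limma adjusted p = 3.04e-09), with group means of 9.27, 9.53 and 9.45 in mGC1_GFAP, mGC2_NES and mGC3_CNP, against 6.85 in NSC. Adcy3 rose by 0.89, Adcy9 by 0.68 and Adcy6 by 0.61. Adcy8 varied within mGC1_GFAP, where its values were 8.53, 10.66 and 7.55, against 8.65 to 9.02 in NSC, and was not called.

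Tmem100 encodes a small transmembrane protein that, in mouse endothelium, is induced by BMP9 through the receptor ALK1. Its values were 11.25, 10.69 and 10.80 in mGC2_NES, 10.55, 8.32 and 8.95 in mGC3_CNP and 8.33, 8.01 and 6.18 in mGC1_GFAP, against 7.93 in N/tv-a, 7.76 in C/tv-a and 8.25 in G/tv-a NSC. The mGC2_NES cultures were highest. The mGC3_CNP cultures spread widely, with an SD of 1.15, and overlapped with mGC1_GFAP but not with NSC. The mGC2_NES mean of 10.92 ± 0.30 (SD, n = 3) exceeded the mGC1_GFAP mean of 7.50 ± 1.16 (SD, n = 3) by 3.41 ± 0.63 (SE), or 10.6-fold. This value depended on a single array: without mGC1_GFAP replicate 3 the mGC1_GFAP minus mGC2_NES difference was -2.75. Against mGC3_CNP the mGC2_NES mean lay 1.64 higher, and 2.28 higher without mGC3_CNP replicate 1. The NSC cultures of these lines differed by 0.33 in the opposite direction.

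Of the 12 measured genes around BMP9 and ALK1, 0 were called among tumour groups (limma F test, 2 at an unadjusted p under 0.05), and against NSC 3 rose and 4 fell. The BMP targets Id1 and Id3 fell by 1.93 and fell by 1.09, the signal transducer Smad5 fell by 0.59 and the receptor Bmpr2 fell by 0.49. The inhibitory Smad7 rose by 0.49, Smad9 by 0.34 and the ALK1 gene Acvrl1 by 0.20, the last at 7.46 in tumour against 7.27 in NSC cultures. Endothelial markers, 6 of 8 of them at or below 7.42 in every group, had list means of 6.48 to 6.55 in mGC1_GFAP, 6.55 to 6.66 in mGC2_NES and 6.54 to 6.75 in mGC3_CNP, against 6.62 to 6.70 in NSC.

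The transcription factor of the set is Nr4a2, or Nurr1, an orphan nuclear receptor needed for midbrain dopamine neurons and made quickly after many stimuli. Its values were 9.17, 9.64 and 9.61 in mGC1_GFAP, 8.73, 9.36 and 8.86 in mGC2_NES and 7.15, 7.59 and 8.19 in mGC3_CNP, against 8.27 in G/tv-a, 8.34 in N/tv-a and 8.19 in C/tv-a NSC. The mGC1_GFAP and mGC2_NES cultures overlapped, and all lay above NSC, whereas the mGC3_CNP cultures lay below NSC or, in replicate 3, level with the lowest NSC culture. The mGC1_GFAP mean of 9.47 ± 0.26 exceeded the mGC3_CNP mean of 7.64 ± 0.52 (SD, n = 3 each) by 1.83 ± 0.26 (SE), or 3.56-fold. NSC cultures spanned 0.14, the narrowest range of the 10 genes.

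The paralogs of Nr4a2 did not follow it between tumour groups. Nr4a1 averaged 11.84, 11.84 and 12.04 in mGC1_GFAP, mGC2_NES and mGC3_CNP, against 9.41 in NSC, and rose by 2.49 ± 0.12 (SE, limma adjusted p = 3.86e-08). Nr4a3 averaged 9.11, 8.83 and 9.11, against 7.36 in NSC, and rose by at least 1.65 ± 0.18. Rxrg, a retinoid receptor of the RXR family that pairs with NR4A proteins, rose by at least 4.25 ± 0.21. Over the 5 measured NR4A and RXR genes other than Nr4a2, 0 were called among tumour groups (limma F test, 1 at an unadjusted p under 0.05) and 4 rose against NSC.

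Cyclic AMP and CREB response genes gave a mixed picture. Of 19 measured, 0 were called by the F test (limma, 4 at an unadjusted p under 0.05), and against NSC 5 rose, 5 fell and 9 were not called. Besides Nr4a1 and Nr4a3, Fos rose by 1.52, Egr1 by 0.51 and the phosphatase Dusp1 by 0.46. Ppargc1a, a coactivator of mitochondrial genes, fell by 2.46, Btg2 fell by 1.33, the kinase Sik1 fell by 1.20 and the secreted peptide precursor Vgf fell by 0.42. Dusp1 alone was called between a pair of tumour groups, at -0.59 ± 0.13 (SE, limma adjusted p = 0.0290) in mGC1_GFAP against mGC2_NES.

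**Figure D2:**
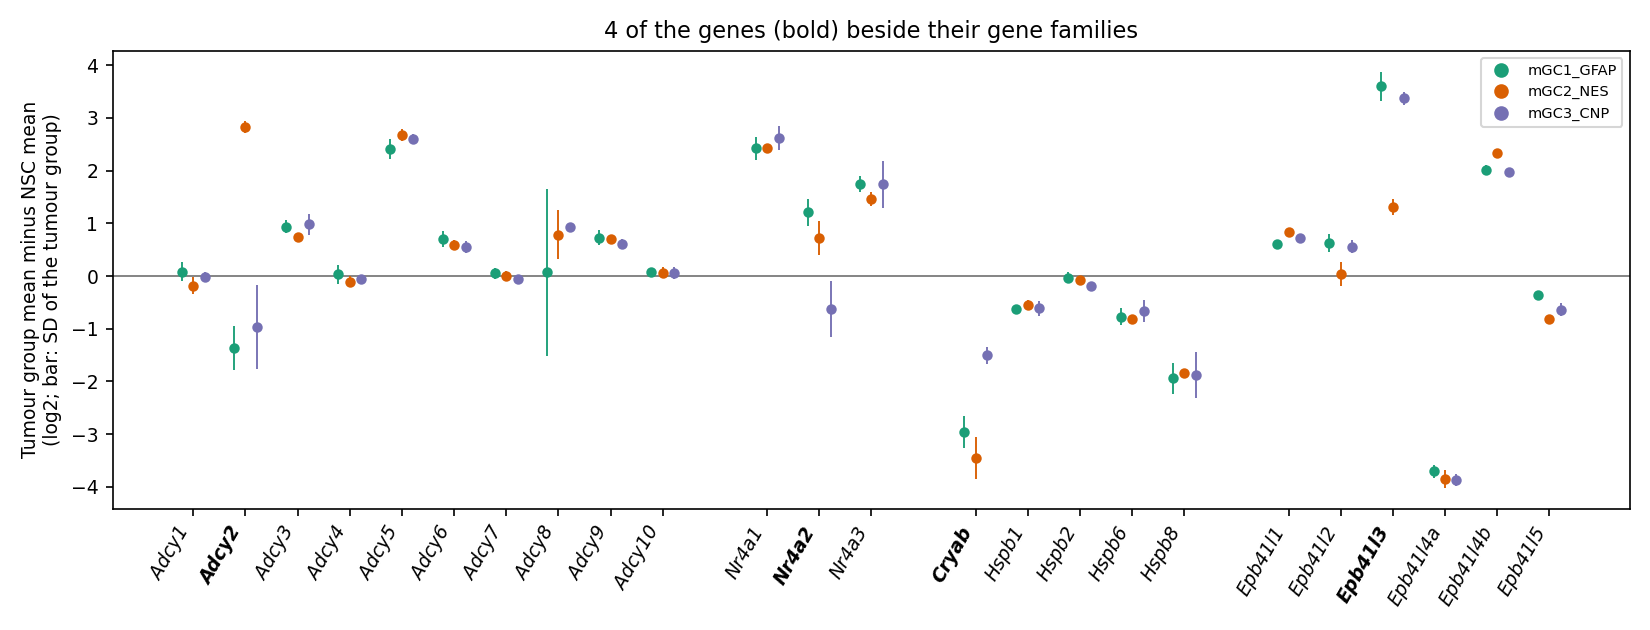
Adcy2, Nr4a2, Cryab and Epb41l3 (bold) beside relatives of each gene, as tumour group mean minus NSC mean on the log2 scale, with the SD of the 3 tumour cultures as bars. The bold genes were picked for tumour group differences (Adcy2 at -1.36, 2.83 and -0.97 in mGC1_GFAP, mGC2_NES and mGC3_CNP), though a pair of tumour groups overlapped in each. Among the relatives, Adcy5, Nr4a1 and Hspb8 have tumour group means close to each other, while Epb41l5 and Epb41l4b were called by the F test.

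Of the membrane proteins, Sv2c encodes synaptic vesicle glycoprotein 2C, a vesicle protein of basal ganglia neurons and a receptor of botulinum toxin A. Its values were 10.63, 10.40 and 10.35 in mGC3_CNP, 10.63, 10.16 and 9.27 in mGC1_GFAP and 8.09, 8.53 and 8.00 in mGC2_NES, against 9.26 in C/tv-a, 9.57 in G/tv-a and 8.74 in N/tv-a NSC. The mGC2_NES cultures lay below all others, the mGC3_CNP cultures lay above NSC, and mGC1_GFAP overlapped with both. The mGC3_CNP mean of 10.46 ± 0.15 exceeded the mGC2_NES mean of 8.21 ± 0.28 (SD, n = 3 each) by 2.25 ± 0.29 (SE), or 4.76-fold. Among NSC, C/tv-a exceeded N/tv-a by 0.51.

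Other synaptic vesicle genes were not called among tumour groups by the F test (limma, 0 of 14 called, 5 at an unadjusted p under 0.05). Syt1, the calcium sensor of release, was higher in mGC1_GFAP than in mGC2_NES by at least 1.24 ± 0.30 (SE, limma adjusted p = 0.0410), with means of 8.44 and 7.19. Against NSC, 6 of the 14 rose, among them Rab3a by 1.24, Syn2 by 1.14, Sv2a by 1.10 and Syn1 by 0.68, and the complexins Cplx1 and Cplx2 fell by 0.65 and fell by 0.35. Neuron markers, which share Syt1 and Snap25 with this list, had list means of 7.18 to 7.38 in mGC1_GFAP, 6.91 to 7.34 in mGC2_NES and 7.34 to 7.42 in mGC3_CNP, against 6.89 to 7.47 in NSC, with 6 of 11 at or below 7.42 in every group. Their part in the Sv2c values was not tested.

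Epb41l3 encodes protein 4.1B, also called DAL-1, which ties cell adhesion molecules to the spectrin cytoskeleton and is described as a tumour suppressor in human meningioma. Its values were 10.52, 10.17 and 10.72 in mGC1_GFAP, 10.13, 10.24 and 10.36 in mGC3_CNP and 8.34, 8.06 and 8.15 in mGC2_NES, against 6.64 in G/tv-a, 6.71 in C/tv-a and 7.27 in N/tv-a NSC. The mGC1_GFAP and mGC3_CNP cultures overlapped, mGC2_NES lay below both, and all 9 tumour cultures lay above NSC. The mGC1_GFAP mean of 10.47 ± 0.28 exceeded the mGC2_NES mean of 8.18 ± 0.14 (SD, n = 3 each) by 2.29 ± 0.14 (SE), or 4.89-fold. G/tv-a NSC lay 0.63 below N/tv-a NSC, with every NSC value below 7.42.

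In the protein 4.1 family and its CADM and contactin-related partners, 2 of 11 measured were called by the F test: Epb41l5 (limma adjusted p = 0.0332) and Epb41l4b (0.0421). In mGC1_GFAP against mGC2_NES, Epb41l5 differed by 0.45, Epb41l2 by 0.59 and Epb41l4b by -0.33, all smaller than the Epb41l3 difference. Against NSC, 6 of the 11 rose and 2 fell. Epb41l4b rose by 2.11 ± 0.10 (SE), the adhesion molecules Cadm4 by 1.25 and Cadm3 by 0.99, and the paranodal protein gene Cntnap1 by at least 0.89, while Epb41l4a changed by -3.81 ± 0.15, a lower bound on the size of its fall, and Epb41l5 fell by 0.60.

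Cryab encodes alphaB-crystallin, a small heat shock chaperone found in astrocytes and oligodendrocytes. Its values were 9.69, 10.01 and 9.79 in mGC3_CNP, 8.48, 8.61 and 8.03 in mGC1_GFAP and 7.44, 8.21 and 8.00 in mGC2_NES, against 11.87 in C/tv-a, 11.87 in G/tv-a and 10.26 in N/tv-a NSC. Every tumour culture lay below every NSC culture, and the mGC3_CNP cultures lay above those of mGC1_GFAP and mGC2_NES, which overlapped. The mGC3_CNP mean of 9.83 ± 0.16 exceeded the mGC2_NES mean of 7.88 ± 0.40 (SD, n = 3 each) by 1.94 ± 0.21 (SE), or 3.85-fold. C/tv-a NSC exceeded N/tv-a NSC by 1.61, close to that difference in size. Between mGC3_CNP and mGC1_GFAP the difference was 1.46, and the NSC cultures of those lines were alike within 0.01.

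Of 8 other small heat shock genes, 0 were called among tumour groups (limma F test, 1 at an unadjusted p under 0.05). Against NSC, 3 fell and 1 rose. Hspb8, a partner of the co-chaperone Bag3, changed by -1.89 ± 0.20 (SE, limma adjusted p = 1.88e-05), a lower bound on the size of its fall, Hspb6 fell by 0.75 and Hspb1 fell by 0.60, while the rise of Hspb3 by 0.29 and the Hspb1 fall lay wholly below 7.42. Of 11 larger chaperones, 5 fell against NSC, from Hspd1, which fell by 0.57, to Hsp90aa1, which fell by 0.30, and 0 rose. Between mGC1_GFAP and mGC2_NES 4 of the 11 were called (limma, 36.4%, against 6.13% of all), Hspa5, Dnaja1 and Hspe1 higher by 0.40, 0.31 and 0.29 and Hspa1a at -0.38, while the F test called 0 (6 at an unadjusted p under 0.05). Against NSC, 5 of 8 astrocyte markers fell, as Cryab did, and Aldoc rose by 0.67. The list means were 7.55 to 7.82 in mGC3_CNP, 7.53 to 7.94 in mGC1_GFAP and 7.41 to 7.50 in mGC2_NES, against 9.59 to 9.92 in NSC. Unlike the Cryab values, the ranges of mGC3_CNP and mGC1_GFAP overlapped for this list. By the F test 0 of the 8 astrocyte markers were called among tumour groups (limma, 2 at an unadjusted p under 0.05). Of 8 measured oligodendrocyte markers, 5 rose against NSC and 1 fell, with a list median of 1.52, unlike the fall of Cryab. The part of either list in the Cryab values was not tested.

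Rerg encodes a RAS-like GTPase named for its regulation by oestrogen and its inhibition of growth in human breast cancer cells. Its values were 7.94, 8.64 and 8.80 in mGC3_CNP, 6.49, 6.51 and 6.32 in mGC1_GFAP and 6.46, 6.39 and 6.42 in mGC2_NES, against 8.68 in C/tv-a, 7.55 in G/tv-a and 7.18 in N/tv-a NSC. The mGC1_GFAP and mGC2_NES cultures all lay below the reading of absent genes, and mGC3_CNP overlapped with NSC. The mGC3_CNP mean of 8.46 ± 0.46 exceeded the mGC2_NES mean of 6.43 ± 0.04 (SD, n = 3 each) by 2.04 ± 0.19 (SE), at least 4.10-fold. NSC of C/tv-a exceeded those of N/tv-a by 1.49 and those of G/tv-a by 1.13. Of 12 related RAS-like GTPases, 7 had all means at or below 7.42, and Rasl11a alone was called by the F test (limma adjusted p = 0.0414), at 11.81, 12.34 and 12.33 in mGC1_GFAP, mGC2_NES and mGC3_CNP, against 10.85 in NSC.

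Y-linked transcripts were missing from all mGC3_CNP cultures, from mGC1_GFAP replicate 3 and from mGC2_NES replicate 2. Rerg read 6.32 and 6.39 in the last 2 of these, as low as in the other cultures of their groups, Cryab 8.03 and 8.21, and Nr4a2 9.61 and 9.36, all outside the range of the mGC3_CNP cultures. The part of sex in these values was not tested, and in mGC3_CNP the lack of Y-linked transcripts cannot be told apart from the group. For mGC2_NES replicate 2, with Xist at 9.27, a mixed or mislabelled culture cannot be told from the files. The same mGC1_GFAP replicate 3 was the lowest of its group for 6 of the 10 genes, among them Penk and Tmem100 at 6.18 each.

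Fam135b encodes a protein of little known function. Its leading probe set read 8.19, 8.34 and 7.81 in mGC1_GFAP, 7.47, 7.47 and 7.37 in mGC2_NES and 7.40, 7.36 and 7.57 in mGC3_CNP, against 7.69 in G/tv-a, 8.25 in N/tv-a and 7.86 in C/tv-a NSC. The mGC1_GFAP cultures lay above the other tumour cultures and overlapped with NSC. The mGC1_GFAP mean of 8.12 ± 0.27 exceeded the mGC2_NES mean of 7.44 ± 0.06 (SD, n = 3 each) by 0.68 ± 0.13 (SE), or 1.60-fold. The other 4 probe sets gave differences of 1.40 to 1.95 between the same groups, each with the mGC2_NES mean below 7.42. All 5 gave the opposite direction between NSC cultures, where G/tv-a minus N/tv-a ran between -1.31 and -0.56, with every NSC value of probe set 10429218 below 7.42. Its paralog Fam135a averaged 9.83, 9.90 and 9.87 in mGC1_GFAP, mGC2_NES and mGC3_CNP, against 9.94 in NSC, and was not called.

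**Figure D3:**
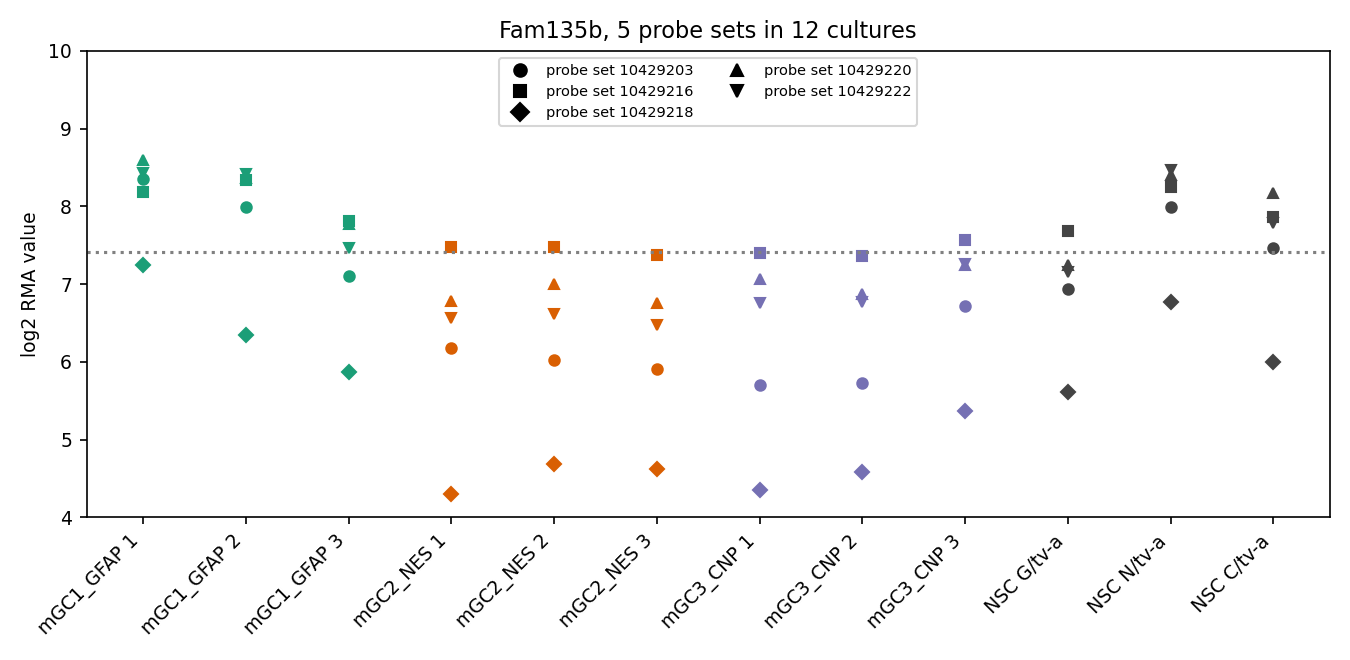
Log2 values of the 5 probe sets of Fam135b (symbols) in the 12 cultures, with the reading of absent genes at 7.42 as a dotted line. Within the tumour groups all 5 are highest in mGC1_GFAP, and among NSC cultures all 5 are lowest in G/tv-a and highest in N/tv-a; probe set 10429218 has all group means below the line.

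Setting each gene against the NSC cultures asked whether a tumour group difference was already present between mouse lines without a tumour. The median distance between highest and lowest tumour group was 2.25 on the log2 scale, against a median range of 0.73 over NSC cultures for the same 10 genes. By leading probe sets, the NSC range reached 1 or more for 4 of the 10: Penk with 1.75, Cryab with 1.62, Rerg with 1.49 and Adcy2 with 1.31. Among all 882 probe sets called by the F test these medians were 0.60 and 0.30, and 5.78% had an NSC range of 1 or more, against 1.67% of all 21780. In the NSC cultures at hand, 1 per line, these 4 genes thus varied as well, although the working name of the set is genes that differ between tumour origins only. So did Fam135b by its other 4 probe sets, with NSC ranges of 1.06, 1.16, 1.16 and 1.31, against 0.56 in its leading one. The lowest NSC value of each of those other probe sets lay below 7.42, as did those of Penk (6.59) and Rerg (7.18).

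In 6 of the 10 genes the pair of lines farthest apart as tumours differed in the same direction as NSC: Penk, Adcy2, Cryab, Rerg, Sv2c and Nr4a2, the last by 0.07. That share lay between 53.1% for all probe sets and 67.3% for those called by the F test, and nothing is read from it. In Fam135b, Tmem100, Epb41l3 and Cnmd the NSC difference ran the other way, and for Epb41l3 and Cnmd every NSC value lay below 7.42. Over all 30 pairs of groups, 14 had the same sign in tumour and NSC cultures (46.7%), against 60.5% for the probe sets called by the F test and 52.0% for all. By pair, 5 of 10 shared the sign for mGC1_GFAP and mGC2_NES, 2 of 10 for mGC1_GFAP and mGC3_CNP and 7 of 10 for mGC2_NES and mGC3_CNP. Shares over all probe sets were not taken pair by pair, so nothing is read from these counts. With 1 NSC culture per line, a difference between lines cannot be told apart from one between cultures.

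**Figure D4:**
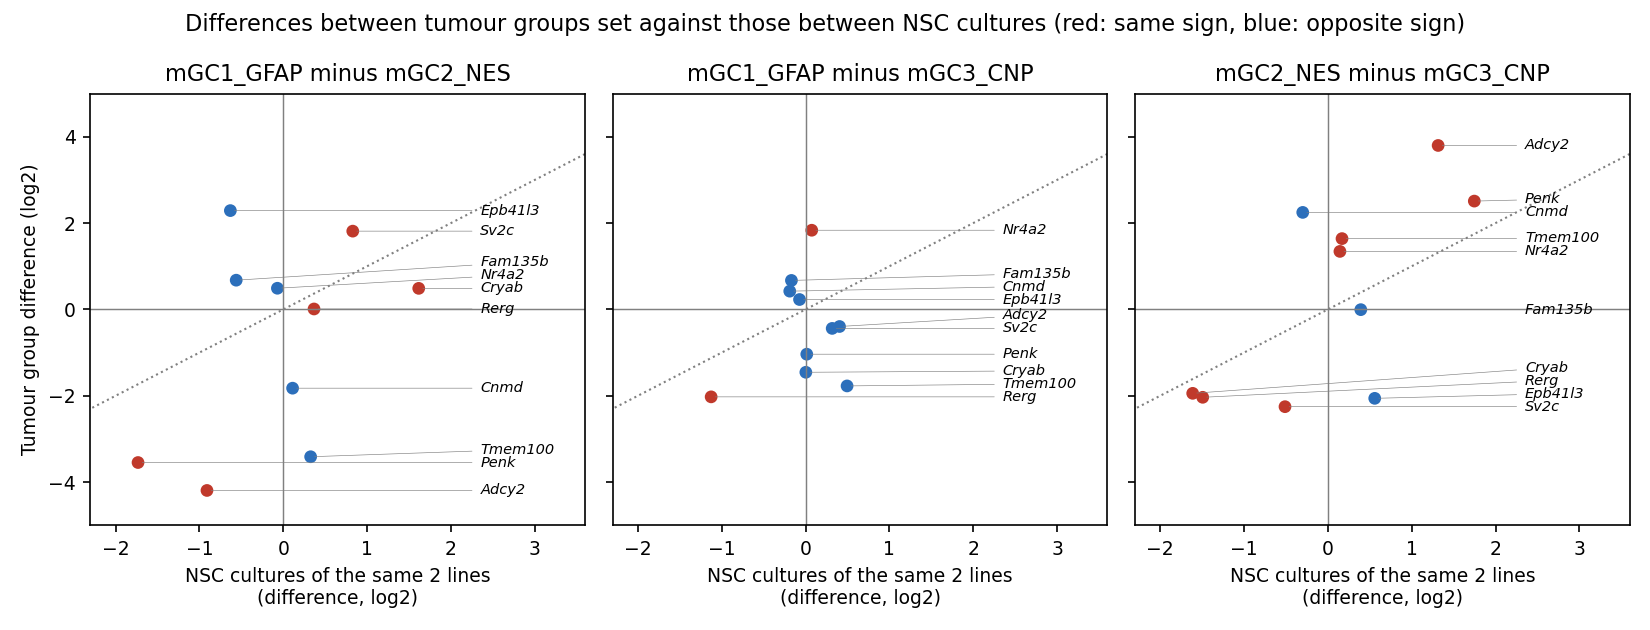
Difference between tumour group means (vertical, log2) against that of the NSC cultures from both lines (horizontal, log2) for the 10 genes, 1 panel per pair of groups; red points share the sign, blue points do not, and the dotted line marks equal differences. Penk reaches -3.55 between mGC1_GFAP and mGC2_NES at -1.73 in NSC, whereas Epb41l3 lies at 2.29 against -0.63, the latter from NSC values all below 7.42.

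The comparison of all tumour with all NSC cultures is not among the contrasts that the rule for picking the genes names, and it was tested, although NSC values may have been known when the genes were picked. Of the 10, 3 rose and 1 fell, that is 4 called, against 36.7% of all probe sets (17.6% higher and 19.2% lower), a share near the background. The arrays of the 9 tumour and 3 NSC cultures did not overlap for 3 of the 10, against 27.3% of all. Epb41l3 averaged 9.63 ± 1.10 in tumour cultures (SD, n = 9) and 6.87 ± 0.35 in NSC (SD, n = 3) and rose by at least 2.76 ± 0.14 (SE, limma adjusted p = 4.67e-08). Cnmd rose by at least 1.89 ± 0.15 (limma adjusted p = 1.72e-06), higher in 9 of 9 tumour cultures. Cryab changed by -2.64 ± 0.30 (limma adjusted p = 3.36e-05), lower in 9 of 9.

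Penk rose by at least 1.48 ± 0.45 (limma adjusted p = 0.0233), but the call depended on which NSC cultures were used. Without the C/tv-a or the G/tv-a culture the values were 1.19 and 1.19 (limma adjusted p = 0.125 and 0.118). Without the N/tv-a culture the value was 2.06 (limma adjusted p = 0.00420). Against the N/tv-a culture alone, without a test, the difference was 0.32. The rise sat in mGC2_NES at 3.50 above the NSC mean and in mGC3_CNP at 0.99, and mGC1_GFAP lay 0.05 below it. Tmem100 (1.25 ± 0.47, adjusted p = 0.0591) and Rerg (-0.70 ± 0.26, adjusted p = 0.0554) missed the threshold in limma. So did Nr4a2 (0.43 ± 0.19, limma adjusted p = 0.108), Sv2c (0.37 ± 0.25, 0.288), Adcy2 (0.17 ± 0.32, 0.746) and the leading probe set of Fam135b (-0.26 ± 0.12, 0.125). Of the other Fam135b probe sets, 10429203 and 10429218 passed at -0.83 and -0.87. Removing 1 culture at a time brought Tmem100, Rerg, Nr4a2 and Fam135b under the threshold in at least 1 case each.

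For 7 of the 10 genes the tumour group means lay on both sides of the NSC mean. The genes were picked for wide gaps between these groups and the share over all probe sets was not taken, so nothing is read from the count. The averages near 0 of Adcy2 and Sv2c came from groups on both sides: Adcy2 stood at -1.36, 2.83 and -0.97 and Sv2c at 0.83, -0.98 and 1.27 in mGC1_GFAP, mGC2_NES and mGC3_CNP, relative to the NSC mean. Epb41l3 and Cnmd lay above the NSC mean in all 3 tumour groups and Cryab below it. The median over the 10 genes was 0.40, with a median size of 0.97, against 0.01 and 0.15 for all probe sets.

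**Figure D5:**
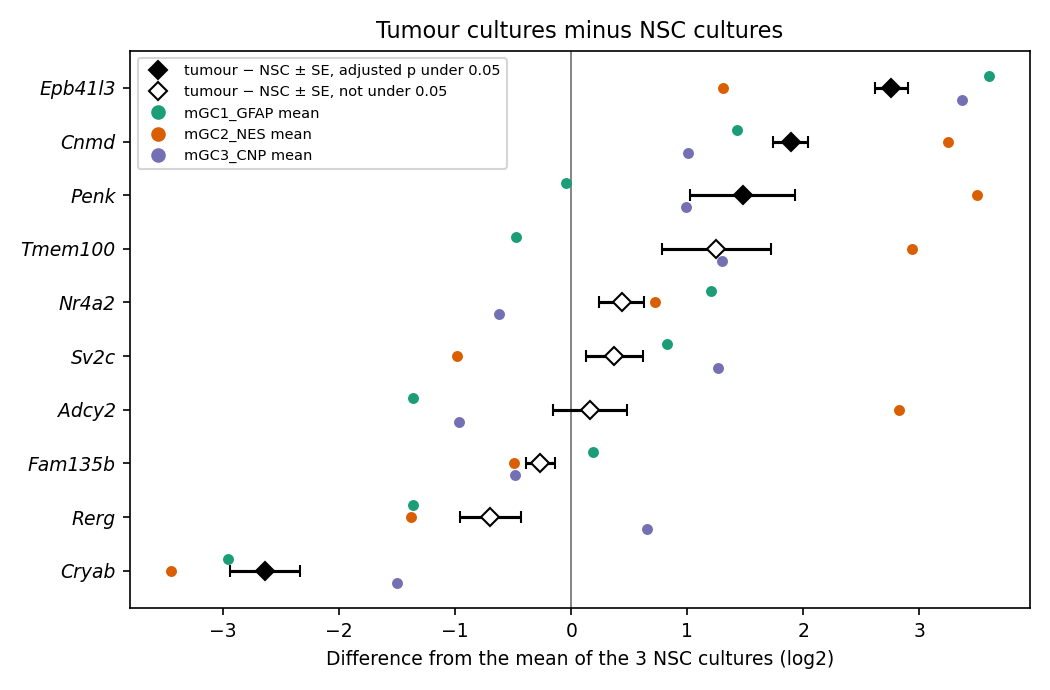
Tumour minus NSC differences of the 10 genes on the log2 scale: diamonds give the limma estimate ± SE, filled where the adjusted p is under 0.05, and coloured points give each tumour group's mean minus the NSC mean. Epb41l3 (2.76), Cnmd (1.89), Penk (1.48) and Cryab (-2.64) have filled diamonds.

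Over the 12 arrays, each gene centred on its own mean, no pair of the 10 genes was closer than Nr4a2 and Fam135b, at a root mean square difference of 0.67, followed by Penk and Tmem100 at 0.85. The 0.67 exceeded the 0.34 by which Fam135b varied about its own mean, so a shared profile of Nr4a2 and Fam135b was not shown. Outside the 10, the named gene most like Adcy2 was AA388235 (0.85), which averaged 5.06, 9.17 and 4.90 in mGC1_GFAP, mGC2_NES and mGC3_CNP, against 6.26 in NSC. Cnmd was most like Otog (0.40), Penk most like Gucy2f (0.80) and Tmem100 most like Tceal1 (0.75). Nr4a2 was most like Tnks1bp1 (0.47), which averaged 9.16, 9.06 and 7.95, against 8.60 in NSC. Sv2c was most like Gpr165 (0.34), Epb41l3 most like Lin7a (0.58), Cryab most like Heg1 (0.68), Rerg most like Rassf4 (0.57) and Fam135b most like Jpt2 (0.20). These likenesses describe 12 arrays that also set tumour apart from NSC, and they can be read against the root mean square of a gene about its own mean, 1.70 for Adcy2 and 0.34 for Fam135b.

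The 10 genes lie on 9 chromosomes, with Adcy2 and Sv2c both on chromosome 13. Of the 200 measured neighbours, 10 on each side of every gene, 7 were called among tumour groups (3.50%, against 4.05% of all). They were Neb and Kcnj3 beside Nr4a2, Poc5 beside Sv2c, Ago2 beside Fam135b, C030034I22Rik beside Epb41l3, and H2aj and Lmo3 beside Rerg. Ago2, the slicer of RNA interference, was likewise highest in mGC1_GFAP, at 11.66, 11.13 and 11.06 in mGC1_GFAP, mGC2_NES and mGC3_CNP (limma F test, adjusted p = 0.0219), and read 10.75 in NSC. Both lie on chromosome 15, whose 748 genes had a median tumour minus NSC difference of 0.11, against 0.01 for other autosomes. In mGC1_GFAP against mGC2_NES, the median difference was -0.002 over the 20 neighbours of Fam135b and 0.001 over the chromosome. A part of the chromosome in the Fam135b or Ago2 values was not tested.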

How the data were processed

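RNA of 12 mouse brain cell cultures was hybridised to 1 Affymetrix array each. Before deposit the authors summarised the probes as log2 values by RMA, per the submitters' processing notes, which also name Affymetrix Expression Console (version not given in the sources used here). RMA gives all arrays one distribution, which hides any shift common to most genes. The deposited values were used unchanged, and array medians lay between 7.60 and 7.66. Probe sets were named from the platform annotation of 2016, of which 21780 of 28270 had exactly 1 symbol. There is no read depth on arrays, and precision is limited by how many there are.

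Tests were run with limma 3.58.1 in R 4.3.3 (two-sided, Benjamini-Hochberg over 21780 probe sets, threshold 0.05), on 9 arrays for tumour groups and on 12 for tumour cultures (their 3 group means averaged) minus NSC, and were checked on simulated data. Levels are mean ± SD and differences are estimate ± SE. The labels call the tumour cultures biological replicates without tying each to an animal, and the p-values cover only the variation among these cultures, which may be technical. For tumour minus NSC, the SE and p-values use the spread within groups and leave out that between tumour groups. The 10 genes, the gene lists and the tests were chosen with earlier results of these data known. Named besides the 10 were up to 4 called genes per list and direction, the most alike gene, and called neighbours among the 10 nearest genes on each side. Alternatives were a trended or robust variance prior, quantile and median scaling, array weights, leaving out the lowest 25% of probe sets, a replicate block, all 12 arrays in 1 fit and each array left out.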

Additional observations from a re-analysis of the deposited data

Results flagged for a closer look

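For 2 of the 10 genes, every array of one tumour group lay above every array of another while the NSC cultures of the same lines differed by at least 0.5 on the log2 scale in the opposite direction. With 1 NSC culture per line, none of these contrasts between tumour and NSC was tested. Those with mGC1_GFAP rest on the single G/tv-a NSC culture, in which Xist (11.86) and Y-linked transcripts (mean 8.39) were both found.

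Epb41l3 was 2.29 higher in mGC1_GFAP than in mGC2_NES, and the G/tv-a minus N/tv-a difference in NSC was -0.63. It differed by -2.06 in mGC2_NES against mGC3_CNP, and the N/tv-a minus C/tv-a difference in NSC was 0.56. The NSC values (6.64 in G/tv-a, 7.27 in N/tv-a and 6.71 in C/tv-a) all lay below 7.42, the highest reading of genes taken as absent. A difference of Epb41l3 between NSC cultures was therefore not shown.

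Fam135b gave this pattern in all 5 probe sets for mGC1_GFAP against mGC2_NES. The tumour differences were 1.78, 0.68, 1.95, 1.40 and 1.55 in probe sets 10429203, 10429216, 10429218, 10429220 and 10429222, and the NSC differences were -1.06, -0.56, -1.16, -1.16 and -1.31 in that order. For mGC1_GFAP against mGC3_CNP it held in 10429203 (1.77, and -0.52 in NSC), 10429220 (1.19, and -0.93 in NSC) and 10429222 (1.17, and -0.64 in NSC). For mGC2_NES against mGC3_CNP it held in 10429222 alone, at -0.38 and 0.67 in NSC. The 5 probe sets read 1 gene and are not independent, and every NSC value of 10429218 lay below 7.42.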

How the results depend on the processing

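The differences between tumour groups of the 10 genes moved by less than the SD between replicates in 510 of 510 alternative values. For most of these no other outcome was possible. A trended or robust prior, the low filter, the replicate block and NSC arrays in the fit leave these differences unchanged. Leaving out an array of so small a group cannot move its mean by that SD. The 510 thus include Tmem100 in mGC1_GFAP against mGC2_NES, at -3.41 with all arrays and -2.75 without mGC1_GFAP replicate 3. Only quantile scaling, median scaling and array weights could have given a larger move. Against NSC, Cryab, Sv2c, Epb41l3 and Cnmd kept direction and side of the threshold in all 18 alternatives that gave a test. Against single NSC cultures (C/tv-a, N/tv-a and G/tv-a in that order, no test), Cryab stood at -3.17, -1.56 and -3.18, Penk at 2.07, 0.32 and 2.05, Rerg at -1.57, -0.08 and -0.44, Adcy2 at 0.74, -0.58 and 0.33, and Sv2c at 0.31, 0.82 and -0.01. Adcy2, not called, reversed to -0.12 without the C/tv-a NSC culture and reached 0.54 without the N/tv-a one. Rerg passed with median centring (-0.73), array weights (-0.76), the lowest quartile of probe sets left out (-0.70), without mGC3_CNP replicate 3 (-0.75) or the N/tv-a NSC culture (-1.01). Tmem100 passed without mGC1_GFAP replicate 3 (1.47) or mGC3_CNP replicate 2 (1.41), Nr4a2 without mGC3_CNP replicate 1 (0.52) and Fam135b without the G/tv-a NSC culture (-0.39). The cause was not tested.

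Counts over all probe sets depended on single arrays. Leaving out 1 array gave 534 to 1619 for mGC1_GFAP against mGC2_NES (1336 with all arrays), 24 to 106 for mGC1_GFAP against mGC3_CNP (106), 42 to 133 for mGC2_NES against mGC3_CNP (100), 222 to 945 for the F test (882) and 6777 to 8114 for tumour against NSC (8004). The lowest counts came without mGC1_GFAP replicate 1 (534 and 222) and without mGC3_CNP replicate 3 (24 and 42). For mGC1_GFAP against mGC3_CNP, array weights gave 195 and all 12 arrays in the fit 65. The 14 pairs with the same sign in tumour and NSC became 15 with quantile or median scaling.

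Same-numbered cultures of different groups correlated at 0.00 to 0.25 in their deviations from the group means, over 0.1 in 5 of 9 pairs, among them all 3 of mGC2_NES with mGC3_CNP (0.13 to 0.25), and the labels do not say that a number marks a shared source. With a replicate block the counts were 1436, 74, 121 and 856 for the 3 pairs and the F test, of which 1121, 58, 79 and 651 were also called without it. Readings at or below 7.42 bound what low probe sets can show.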

Other observations

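Among 19 measured cyclic AMP phosphodiesterases and protein kinase A subunits, which break down the product of Adcy2 or respond to it, 8 rose and 5 fell in tumour against NSC cultures (limma, 36.7% of all probe sets called). The phosphodiesterase Pde8b rose by at least 3.49 ± 0.09 (SE), with means of 10.35, 10.18 and 10.45 in mGC1_GFAP, mGC2_NES and mGC3_CNP, against 6.84 in NSC. Pde8a rose by at least 2.68 ± 0.47, the regulatory subunit Prkar1b by 1.17 ± 0.15 and Pde7b by 1.14 ± 0.33. Pde3a changed by -2.18 ± 0.21, a lower bound on the size of its fall, Pde7a fell by 0.54 and the kinase inhibitor Pkig fell by 0.50.

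Between tumour groups, 3 of the 19 were called by the F test (limma, 4.05% of all): Prkar2b (adjusted p = 0.0117), Pkig (0.0160) and Pde3a (0.0416). Prkar2b averaged 10.37, 10.01 and 10.44 in mGC1_GFAP, mGC2_NES and mGC3_CNP, lowest in the group where Adcy2 was highest, against 10.11 in NSC. Pkig averaged 8.15, 8.29 and 8.96, against 8.97 in NSC. Pde4d was higher in mGC1_GFAP than in mGC2_NES by 0.56 ± 0.11 (SE, limma adjusted p = 0.0232).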
